A study of Homo sapiens with 12 samples.

Results

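U2OS cells, an established human osteosarcoma cell line, were treated with 5 ppm of the strigolactone analogue ST362 or MEB55 dissolved in acetone, or with the acetone vehicle alone, and total RNA was hybridised to 12 Illumina bead arrays. The labels gave 6 groups of 2 arrays, namely vehicle, ST362 and MEB55, each at 6 h and at 24 h. Described here are the 4 of the 8 analogue arrays on which HSPA6 was high, set against all 4 vehicle arrays. For both compounds they were replicate 1 of the group labelled 6 h and replicate 2 of the group labelled 24 h, and they are called the heat-shock-high arrays below. This grouping crossed the time labels: each labelled group of an analogue had 1 array inside the set and 1 outside it. Times were kept as labelled, and whether each label gives the true exposure time of its array was not tested, so 6 h and 24 h below name arrays and carry no statement about time.

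The members were chosen by their raw HSPA6 signal. An analogue array was taken when the log2 signal of probe ILMN_1806165 was more than 3 above the mean of the vehicle arrays. The raw signal was 99.9, 84.1, 86.7 and 82.6 on the vehicle arrays, and 1306.3 (ST362 6 h), 2065.4 (MEB55 6 h), 2124 (ST362 24 h) and 6291.4 (MEB55 24 h) on the arrays chosen. The array just inside the rule was ST362 6 h replicate 1, at 3.891 above the vehicle mean, and the array just outside it was MEB55 6 h replicate 2, at 0.285. No array lay between these values. The second HSPA6 probe, ILMN_1658383, was dimmer: the 4 members were at 1.142 to 2.591 above vehicle, with ST362 24 h and MEB55 6 h in the reverse order, and none of them passed the margin of 3 on the raw scale, against at most -0.039 on the other 4 analogue arrays. Since these values chose the arrays, the differences between the heat-shock-high arrays and vehicle are given as a description and carry no test.

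HSPA6 encodes a strictly inducible member of the HSP70 family, the ATP-driven chaperones that bind unfolded stretches of protein. When unfolded proteins build up in the cytosol, heat shock factor 1 forms trimers and binds heat shock elements, which are alternating GAA and TTC units in the promoters of chaperone genes. J-domain proteins such as DNAJB1 deliver substrates to HSP70, BAG3 releases them and couples HSP70 to the small chaperone HSPB8, and ZFAND2A is a proteotoxic-stress gene driven by the same factor. Unfolded protein in the endoplasmic reticulum is sensed separately, through XBP1, ATF6 and the kinase PERK, and PERK and related kinases raise the transcription factor ATF4, whose targets include DDIT3 (CHOP), CHAC1, TRIB3 and SESN2. Oxidants and electrophiles release NRF2, which drives genes of glutathione and haem metabolism such as GCLM, SLC7A11 and HMOX1. U2OS is widely used as a cell model of bone tumours and carries a mesenchymal expression programme.

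The promoters of some of the genes that were high are shown first. Heat shock elements and the elements used by ATF4 and the endoplasmic reticulum stress factors can be looked for in their sequence. Only genes with a match are shown, and the share of genes with each motif follows. The stretches come from RefSeq, build GRCh38.p14, run 5′ to 3′ on the strand of the gene and lie within the 250 bases before its start. Capitals mark the motif named with each gene. For DNAJB1, DNAJA4 and ABCB1, which had more than 1 start in the table, the start with the most matches is shown.
HSPA6, chr1:161524426-161524518, plus strand, 3 alternating GAA and TTC units: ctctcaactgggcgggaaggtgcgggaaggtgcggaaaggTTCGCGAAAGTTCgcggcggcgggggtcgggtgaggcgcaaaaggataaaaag
HSPA1B, chr6:31827593-31827680, plus strand, GAANNTTC: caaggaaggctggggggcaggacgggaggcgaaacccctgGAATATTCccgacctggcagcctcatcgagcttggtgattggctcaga
DNAJB1, chr19:14518398-14518514, minus strand, GAANNTTC: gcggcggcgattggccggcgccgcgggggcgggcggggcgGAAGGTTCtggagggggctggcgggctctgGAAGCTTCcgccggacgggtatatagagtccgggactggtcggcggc
DNAJA4, chr15:78264431-78264557, plus strand, GAANNTTC: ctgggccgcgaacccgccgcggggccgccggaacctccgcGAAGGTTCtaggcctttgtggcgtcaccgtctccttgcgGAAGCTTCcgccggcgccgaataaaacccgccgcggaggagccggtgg
HSPB8, chr12:119178803-119178890, plus strand, GAANNTTC: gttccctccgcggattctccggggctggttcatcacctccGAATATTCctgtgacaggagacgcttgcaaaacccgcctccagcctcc
ABCB1, chr7:87601012-87601099, minus strand, GAANNTTC: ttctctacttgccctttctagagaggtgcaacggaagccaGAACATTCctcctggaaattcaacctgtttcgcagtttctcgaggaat
CHAC1, chr15:40953222-40953309, plus strand, TGATGNAA, here read on the other strand: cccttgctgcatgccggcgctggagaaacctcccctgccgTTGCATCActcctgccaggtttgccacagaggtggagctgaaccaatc
FICD, chr12:108515083-108515181, plus strand, the endoplasmic reticulum stress element: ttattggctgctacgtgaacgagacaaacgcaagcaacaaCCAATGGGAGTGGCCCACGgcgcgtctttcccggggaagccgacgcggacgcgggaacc

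Each motif was searched on both strands of all 35116 windows in that table. GAANNTTC stood in 5.78% of windows and TTCNNGAA in 6.62%. The form of 3 alternating units, which contains both of the shorter ones, stood in 0.441%, TGATGNAA (the element shared by ATF4 and CHOP) in 3.14%, the antioxidant core TGACNNNGC in 10.9% and the endoplasmic reticulum stress element in 0.074%. Of the 118 genes described below as higher, 96 had a window. GAANNTTC was found in 16 of them (16.7%), against 5.86% of the 9858 measured genes with a window, and these included HSPA6, HSPA1B, HSPA1A, HSPA1L, DNAJA4, DNAJB1 and HSPB8. The form of 3 units was found in 3 of the 96 (3.12%, against 0.497% of measured genes), namely HSPA6, ABHD3 and MANCR. The chaperone lists below hold other measured genes with that form, none of them among the 118: HSPA8, DNAJB6, CHORDC1, HSP90AA1, HSP90AB1, HSPD1 and SERPINH1. Their differences from vehicle ran from 0.21 (HSPD1) to 0.95 (SERPINH1) on the log2 scale. TTCNNGAA was found in 13 of the 96 (13.5%, against 7.49% of measured genes), TGATGNAA in 4 (4.17%, against 2.57%) and TGACNNNGC in 23 (24.0%, against 15.8%). The 4 with TGATGNAA were DNAJA4, CHAC1, TRIM2 and MBNL2, of which CHAC1 alone is in the list of ATF4 and CHOP targets below. The endoplasmic reticulum stress element was found in 1 of the 96, FICD (1.04%, against 0.152% of measured genes). Of the 44 genes lower, 34 had a window, of which 2 held GAANNTTC (5.88%), 1 held TTCNNGAA, 2 held TGATGNAA (5.88%) and 4 held TGACNNNGC (11.8%). HSPA6 chose the arrays, so its place among the 118 was fixed beforehand. It counts in the shares of the higher genes for every motif except TGATGNAA and the endoplasmic reticulum stress element. These are matches of letters, described without a test, and not sites shown to be bound. FICD, ABHD3 and MANCR were named after their values were seen.

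The arrays were of similar depth in signal. Raw medians ran from 80.7 to 90.4, with 42.73% to 47.35% of probes detected, and replicate 1 of the 6 h vehicle had the highest 75th percentile, 149.3, where the others ranged from 115.1 to 125.4. After normalisation the 4 heat-shock-high arrays correlated at 0.9826 to 0.9914 with each other, at 0.9692 to 0.9860 with vehicle and at 0.9702 to 0.9803 with the other 4 analogue arrays. Of 13 mesenchymal and bone markers with a probe, 10 were detected on every vehicle array and 9 on every heat-shock-high array. The exception was RUNX2, an osteoblast transcription factor, detected on all 4 vehicle arrays and on none of the heat-shock-high arrays. No fold is given for RUNX2, since its difference of -0.79 was -0.26 without background correction. It was -0.20 without vehicle 24 h replicate 1, but probes were filtered and chosen anew there, so the probe read may differ. EPCAM was the single epithelial marker of 9 detected on all 8 arrays, and no blood or endothelial marker of 9 was. RNA came from whole cultures, so fewer cells with a transcript and less of it per cell cannot be told apart. The summed signal of the mesenchymal list, on the log2 scale, ran from 13.05 to 13.40 on the heat-shock-high arrays and from 13.25 to 13.65 on the vehicle arrays.

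A gene was counted as higher or lower when its 4 values did not overlap the 4 vehicle values and the means differed by more than 2-fold. On that measure 118 of 12368 genes (0.954%) were higher and 44 (0.356%) were lower. The median of all genes was -0.01 on the log2 scale, and the median SD between arrays was 0.186 in vehicle and 0.179 in the heat-shock-high arrays. With no demand on size, 928 genes lay wholly above and 956 wholly below vehicle. All 118 higher genes were detected on all 4 heat-shock-high arrays, 106 were detected on all 4 vehicle arrays and 2 on none. Differences were over 4-fold for 21 higher genes and for none of the lower genes. These counts depended on the treatment of background. With the quantile-normalised series values deposited by the authors, 52 genes were higher and 10 lower (83.9% higher, against 72.8%), and without background correction 40 and 9, all of them among the 118 and 44. Values below are log2 differences from the mean of the 4 vehicle arrays, given for the heat-shock-high arrays in the order ST362 6 h, MEB55 6 h, ST362 24 h and MEB55 24 h, and for vehicle in the order 6 h replicates 1 and 2, then 24 h replicates 1 and 2.

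The cytosolic HSP70 genes led the set. Of 17 HSP70 genes listed, 14 were measured, and 6 were higher and none lower (HSPA6, HSPA7, HSPA1B, HSPA1A, HSPA1L and HSPH1). HSPA6 stood at 5.95, 6.45, 6.51 and 7.99 above vehicle, where the vehicle arrays spread from -0.14 to 0.18. Its mean was 6.73, or 106-fold, with a log2 level of 4.55 ± 0.13 (SD, n = 4) in vehicle and 11.28 ± 0.88 (SD, n = 4) in the heat-shock-high arrays. It was the gene that chose the arrays, it was detected on only 2 of the 4 vehicle arrays, and its difference was 4.90 with the authors' series values and 4.65 without background correction. HSPA7, a transcribed near-copy of HSPA6 on the same chromosome, stood at 4.24, 4.71, 4.60 and 6.62, against -0.09, -0.28, 0.16 and 0.21 in vehicle. The probes of such near-identical copies can share signal, and this holds for HSPA1A and HSPA1B as well.

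HSPA1B, one of a tandem pair of major inducible HSP70 genes on chromosome 6 (31827738 to 31830254, GRCh38.p14), was at 3.25, 3.60, 2.98 and 3.50, and at 0.00, 0.25, -0.18 and -0.08 in vehicle. The 4 arrays were close together and far above every vehicle array, with a mean difference of 3.33 (10.1-fold) from a vehicle level of 10.00 ± 0.18 (SD, n = 4). HSPA1A, the other gene of the pair, was at 2.72, 2.84, 2.73 and 2.97, the tightest spread among the leading genes. Both were already bright in vehicle, and HSPA1B was 3.26 with the authors' series values. HSPA1L, a neighbour in that cluster, was at 1.70, 1.92, 0.98 and 1.80. The constitutive members gave smaller values: HSPA8 was at 0.36, HSPA4 at 0.40 and the mitochondrial HSPA9 at 0.24, none of them counted. The median over the 14 measured genes was 0.81, against -0.01 for all genes, and it was 0.28, 0.84, 0.78 and 1.26 on the single arrays.

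**Figure D1:**
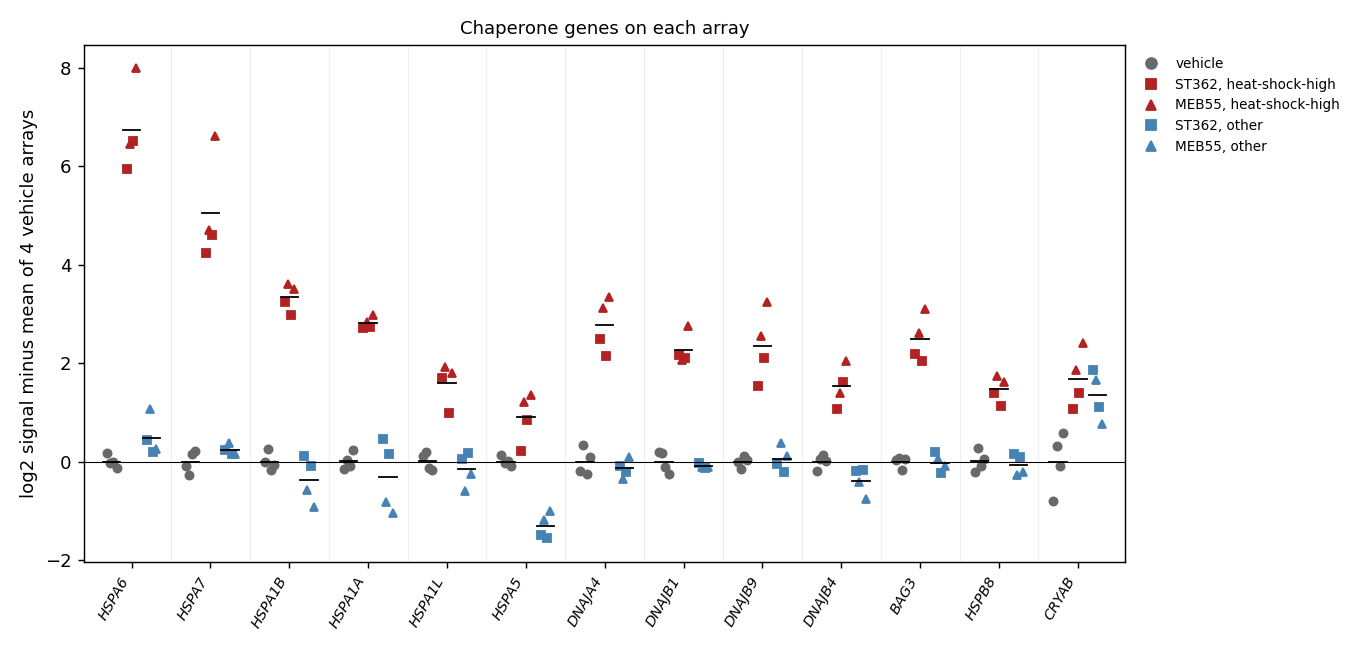
Log2 signal of 13 chaperone genes on each of 12 arrays, as the difference from the mean of the 4 vehicle arrays (squares ST362, triangles MEB55, circles vehicle, short lines the mean of 4 arrays). HSPA6 stood 5.95 to 7.99 above vehicle on the heat-shock-high arrays and 0.20 to 1.06 above it on the other analogue arrays, while CRYAB was raised in both sets.

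HSPA5, the HSP70 of the endoplasmic reticulum, differed from its cytosolic relatives. It was at 0.21, 1.21, 0.85 and 1.35 on the heat-shock-high arrays, with vehicle at 0.13, -0.04, 0.01 and -0.10, and its mean of 0.91 fell short of 2-fold. On the other 4 analogue arrays it was at -1.56 to -1.01, below every vehicle array, so the 2 sets of analogue arrays lay on opposite sides of vehicle.

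Some co-chaperones of HSP70 were high with it. Of 15 J-domain genes measured, 4 were higher and none lower, with a median of 0.55 and 11 above 0. DNAJA4, a cytosolic J-domain protein, was at 2.48, 3.11, 2.14 and 3.34 against -0.19, 0.34, -0.25 and 0.10 in vehicle, a mean of 2.77. DNAJB1, the main partner of inducible HSP70, was at 2.16, 2.07, 2.11 and 2.76, against 0.19, 0.17, -0.11 and -0.25. ST362 6 h, MEB55 6 h and ST362 24 h were nearly equal and MEB55 24 h stood above them. DNAJB9, an endoplasmic reticulum J-domain protein and a target of XBP1, was at 1.54, 2.54, 2.10 and 3.23 and had vehicle values of -0.01, -0.16, 0.12 and 0.04. DNAJB4 was at 1.07, 1.39, 1.61 and 2.05, and its other analogue arrays lay between -0.76 and -0.18.

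Among small heat shock proteins and BAG co-chaperones, 3 of 17 measured genes were higher and none lower, with a median of 0.21. BAG3 was at 2.19, 2.62, 2.04 and 3.09, against 0.04, 0.08, -0.18 and 0.06 in vehicle. The 2 sets lay far apart, and the mean of 2.49 was 2.28 with the authors' series values. HSPB8, the small chaperone that BAG3 holds, was at 1.39, 1.73, 1.13 and 1.62. CRYAB, a small chaperone of the lens and of muscle, was at 1.07, 1.85, 1.39 and 2.41, but its vehicle arrays ran from -0.80 to 0.57 and its other analogue arrays from 0.76 to 1.85. ZFAND2A was at 1.64, 2.45, 1.74 and 3.14, against vehicle values of -0.15 to 0.31.

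HSP90 and the chaperonin gave smaller values. Of 23 genes of HSP90, the CCT chaperonin and their co-chaperones, 1 was higher, AHSA2P, at 1.15, 0.72, 1.14 and 1.20. The median was 0.17. FKBP4 and STIP1, which bind HSP90, were at 0.66 and 0.58, and SUGT1 at 0.50, none of them counted. No proteasome subunit of 29 was counted, with a median of 0.09 and a range of -0.10 to 0.48, and no cytosolic ribosomal protein of 55 was, with a median of 0.01.

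Several ATF4 and CHOP targets were high. Of 37 measured genes, 10 were higher (GDF15, DDIT3, DDIT4, CHAC1, PPP1R15A and CTH the highest) and none lower, and 36 had a difference above 0. The count was 8 with the authors' series values and 6 without background correction. The median was 0.43, and on single arrays 0.21, 0.42, 0.40 and 0.86. The other 4 analogue arrays had a median of 0.27 for these genes, so the list was shifted in both sets. DDIT3, which encodes the stress transcription factor CHOP, was at 1.99, 3.22, 3.03 and 4.17, against 0.08, 0.27, -0.22 and -0.13 in vehicle. On the other analogue arrays it was between 0.17 and 0.33, with no overlap. GDF15, a stress-induced cytokine of the TGF-beta family, was at 2.48, 3.71, 2.88 and 4.27 against -0.37, 0.32, -0.04 and 0.09, but was also at 1.33 to 2.45 on the other analogue arrays. DDIT4, an inhibitor of mTORC1, was at 1.29, 2.67, 2.42 and 4.00, the widest range of the group, against -0.22 to 0.13 in vehicle.

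CHAC1, which degrades glutathione and whose promoter is shown above, was at 0.94, 2.11, 1.67 and 2.42. Its vehicle arrays reached 0.40, so ST362 6 h lay nearest to them, and CHAC1 was detected on 2 of the 4 vehicle arrays, with a mean of 1.79 that was 0.70 without background correction. PPP1R15A, the phosphatase subunit that reverses the block in translation, was at 1.60, 1.89, 1.37 and 2.03, with the other analogue arrays at 0.53 to 0.94. SESN2, a stress-induced regulator of mTORC1, was at 0.70, 1.41, 1.21 and 2.38. TRIB3, a pseudokinase that inhibits ATF4 and AKT, was at 0.30, 1.5, 0.61 and 2.20, with both ST362 arrays below both MEB55 arrays. SLC3A2, the heavy chain of amino acid exchangers, was at 1.30, 1.37, 1.45 and 1.83 with vehicle at -0.33 to 0.35. ATF3, another stress transcription factor, was at 1.04, 1.30, 0.45 and 1.87, overlapped vehicle (up to 0.75) and was not counted.

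The other arms of the unfolded protein response gave smaller values. Of 26 measured genes, 1 was counted, DNAJB9, and 22 were above 0, with a median of 0.40 against 0.01 on the other analogue arrays. XBP1 was at 0.79 and the PERK inhibitor DNAJC3 at 0.90. The count of 1 became 3 without ST362 6 h replicate 1 and 2 without vehicle 24 h replicate 1. FICD, the enzyme that AMPylates HSPA5, was at 1.33, with a range of 0.40 to 1.88 over the 4 arrays, and at -0.31 as the mean of the other analogue arrays.

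HMOX1, which degrades haem and is driven by NRF2 among other factors, followed HSPA6 and HSPA7 in size. It was at 3.41, 5.46, 4.60 and 6.04 against -1.15, -0.02, 0.54 and 0.63 in vehicle, a mean of 4.88 (29.4-fold) with SDs of 0.82 in vehicle and 1.14 in the heat-shock-high arrays (n = 4 each). Vehicle itself varied, with vehicle 6 h replicate 1 the lowest: the mean was 5.46 against the 6 h vehicle arrays alone. HMOX1 had a mean of 0.88 on the other analogue arrays. Of 23 NRF2 targets, 3 were higher (HMOX1, SLC7A11 and GCLM) and none lower, and 1 was at a limit of 3-fold. SLC7A11, the cystine transporter, was at 1.00, 0.99, 1.71 and 1.61, below or within the 1.57 to 1.84 of the other analogue arrays. GCLM, a subunit of the enzyme that starts glutathione synthesis, was at 0.75, 1.07, 1.49 and 1.22, and at 0.01 to 0.41 on the others. NQO1, a standard NRF2 target, was at 0.33 and the list's median was 0.20, against 0.35 on the other analogue arrays. On the single vehicle arrays that median was -0.33, -0.17, 0.34 and 0.22, so the list as a whole was not set apart from vehicle. The count of 3 changed by more than 1.5-fold against the vehicle arrays of either time label alone.

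**Figure D2:**
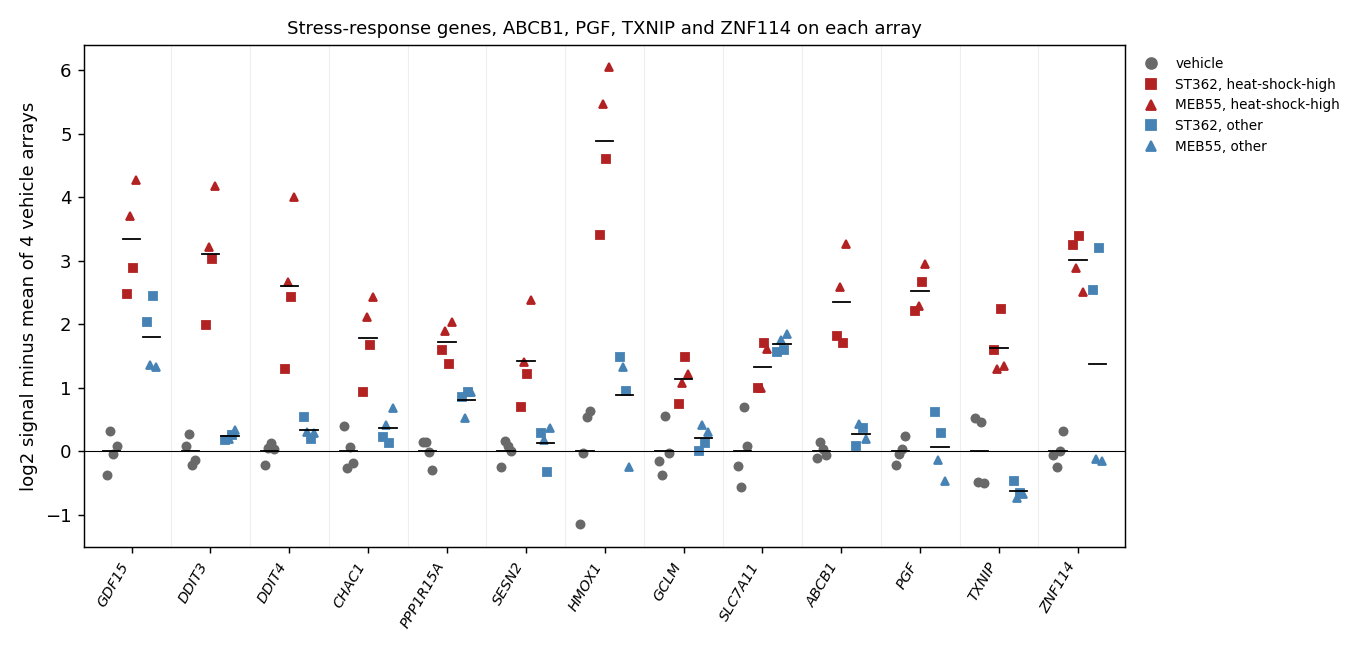
Log2 signal of 9 stress-response genes and of ABCB1, PGF, TXNIP and ZNF114 on each array, as the difference from the mean of the 4 vehicle arrays (symbols and lines as for the chaperone genes). DDIT3, DDIT4 and ABCB1 were near vehicle on the other analogue arrays, while SLC7A11 was at least as high there and, of those other arrays, ZNF114 was high with ST362 alone.

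ABCB1, the multidrug efflux pump P-glycoprotein, was at 1.82, 2.59, 1.70 and 3.26, against -0.11, 0.14, 0.03 and -0.06 in vehicle. All 4 arrays were well above vehicle, and the other analogue arrays were at 0.08 to 0.43. Its mean of 2.34 (5.07-fold) came from the brighter of 2 probes, the other gave 1.59, and the authors' series values gave 1.63. It was the only one of 19 measured ABC transporters that was counted, in a list with a median of -0.10, the next being ABCC5 at 0.76, and 2 of the 19 were counted without vehicle 6 h replicate 2. PGF, placental growth factor, a ligand of the VEGF receptor FLT1, was at 2.21, 2.28, 2.67 and 2.95, against -0.22, -0.05, 0.03 and 0.24. The lowest of the 4 arrays was far above the highest vehicle array. The mean of 2.53 (5.76-fold), from a log2 vehicle level of 5.20 ± 0.19 (SD, n = 4), became 1.47 with the authors' series values. PGF was also alone in its list, 1 of 18 angiogenic factors, where FGF2 was at 0.66 and THBS1 at -0.77. HSPA1B, ABCB1 and PGF had been named beforehand, from these same data, as markers of the heat-shock-high arrays. Their separation from vehicle is therefore no separate support for the grouping.

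Of 16 measured FOXO factors and targets, 6 were higher, GABARAPL1, TXNIP, FBXO32, CCNG2, BCL6 and FOXO4, with a median of 0.49 and 0.32 on the other analogue arrays. The count was 3 with the authors' series values and 2 without background correction. TXNIP, the inhibitor of thioredoxin, was at 1.60, 1.30, 2.24 and 1.34 and at -0.73 to -0.47 on the other analogue arrays, while its vehicle arrays were at 0.52, -0.48, 0.46 and -0.50. GABARAPL1, an autophagy protein, was at 1.64, 1.73, 2.17 and 1.99 but also at 0.70 to 2.29 on the others. CCNG2, a cyclin of the G family, was at 1.54, 1.32, 1.77 and 1.57. On the other arrays it was high with ST362 (1.61 and 1.48) and not with MEB55 (-0.34 and -0.45). ZNF114, a zinc finger protein, had that pattern too: it was at 3.24, 2.89, 3.39 and 2.50 on the heat-shock-high arrays, at 2.54 and 3.20 on the other ST362 arrays and at -0.12 and -0.15 on the other MEB55 arrays. Probes of FBXO32 disagreed, at 0.27 and 1.59.

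Of 25 AP-1 and immediate early genes, 4 were higher, with a list median of 0.04 and 0.43 on the other analogue arrays, and the count was 2 with the authors' series values and 1 without background correction. NR4A2, an orphan nuclear receptor, was at 1.59, 1.98, 2.04 and 2.18, FOS at 1.46, 0.71, 1.92 and 1.80, and KLF2 and BTG1 at 1.29 and 1.04 in the mean. Without background correction the means of NR4A2 and FOS were 0.91 and 0.58, in place of 1.95 and 1.47. CCN1 and CCN2, matricellular genes of the same list that YAP drives, were at 0.01, -1.10, -0.63 and -1.99 and at 0.28, -1.06, -0.43 and -2.07. Both were above vehicle on the other analogue arrays, at 0.72 to 1.63 and 0.62 to 0.93. PTGS2, the inducible cyclooxygenase, was at 1.44, 1.90, 2.11 and 3.66 and, with IL1A, was 1 of 2 counted among 21 cytokine and NF-kB genes. CXCL8, the neutrophil chemokine IL-8, was at 1.13, 2.72, 0.37 and 2.58, overlapped vehicle and was not counted.

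Other genes among the 20 highest were MXD1, which antagonises MYC (1.56, 2.16, 1.78 and 3.49), TSC22D3, the glucocorticoid-induced leucine zipper (1.47, 1.98, 2.28 and 3.19), and PWWP3B (1.65, 2.16, 2.09 and 2.71). MXD1 was detected on 2 of 4 vehicle arrays and PWWP3B on 3, and without background correction their means of 2.25 and 2.15 were 0.95 and 0.86. TSC22D3 was also high on the other ST362 arrays, at 1.25 and 1.31, and at 0.05 and 0.23 on the other MEB55 arrays.

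Fewer genes were lower, and none by over 4-fold. LFNG, which glycosylates Notch receptors, was at -1.35, -1.25, -1.83 and -2.08, against -0.01, 0.11, 0.08 and -0.18 in vehicle, a mean of -1.63 (3.09-fold lower). It was below vehicle on the other analogue arrays too, at -1.34 to -0.45. TGFB2, a TGF-beta ligand, was at -0.66, -1.51, -2.12 and -2.21 and at -1.75 to -0.47 on the others, and its mean of -1.62 was -0.87 with the authors' series values. TRIM47, a ubiquitin ligase, was at -1.40, -1.37, -1.82 and -1.81 and stayed at 0.06 to 0.30 on the others. BCL3, an atypical IkB protein, also separated the sets of analogue arrays, at -1.40, -1.36, -1.42 and -1.68 against -0.34 to 0.22. Without background correction the means of TRIM47 and BCL3 were -0.74 and -0.57, in place of -1.60 and -1.46. FJX1 was at -0.91, -1.38, -1.42 and -2.68, and TNS3, a focal adhesion protein, at -1.20, -1.89, -1.32 and -1.91 with vehicle spread from -0.54 to 0.59.

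TRIM6 and CYP24A1, the vitamin D 24-hydroxylase, were low on all 8 analogue arrays: TRIM6 was at -1.46, -1.65, -1.38 and -1.59 and at -1.32 to -1.13 on the others, CYP24A1 at -1.10, -1.80, -1.49 and -1.66 and at -1.34 to -0.88. Their means of -1.52 and -1.51 were -0.89 and -0.62 without background correction. ALDH1B1, a mitochondrial aldehyde dehydrogenase, was at -0.95, -1.72, -1.43 and -2.08. CARD10, a scaffold upstream of NF-kB, was at -1.09, -1.40, -1.65 and -2.10. ADORA2B, an adenosine receptor, was at -1.59, -0.99, -1.66 and -1.69. RRS1, a ribosome assembly factor, was at -0.98, -0.71, -1.62 and -1.96, and PPRC1, a PGC-1-related coactivator, at -1.02, -0.88, -1.52 and -1.70, at -0.58 to 0.15 and -0.39 to 0.37 on the other analogue arrays. Of 23 TGF-beta and YAP targets, TGFB2 and the BMP inhibitor NOG were lower, a count of 2 that was 4 without ST362 6 h replicate 1 and 1 without vehicle 6 h replicate 1.

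**Figure D3:**
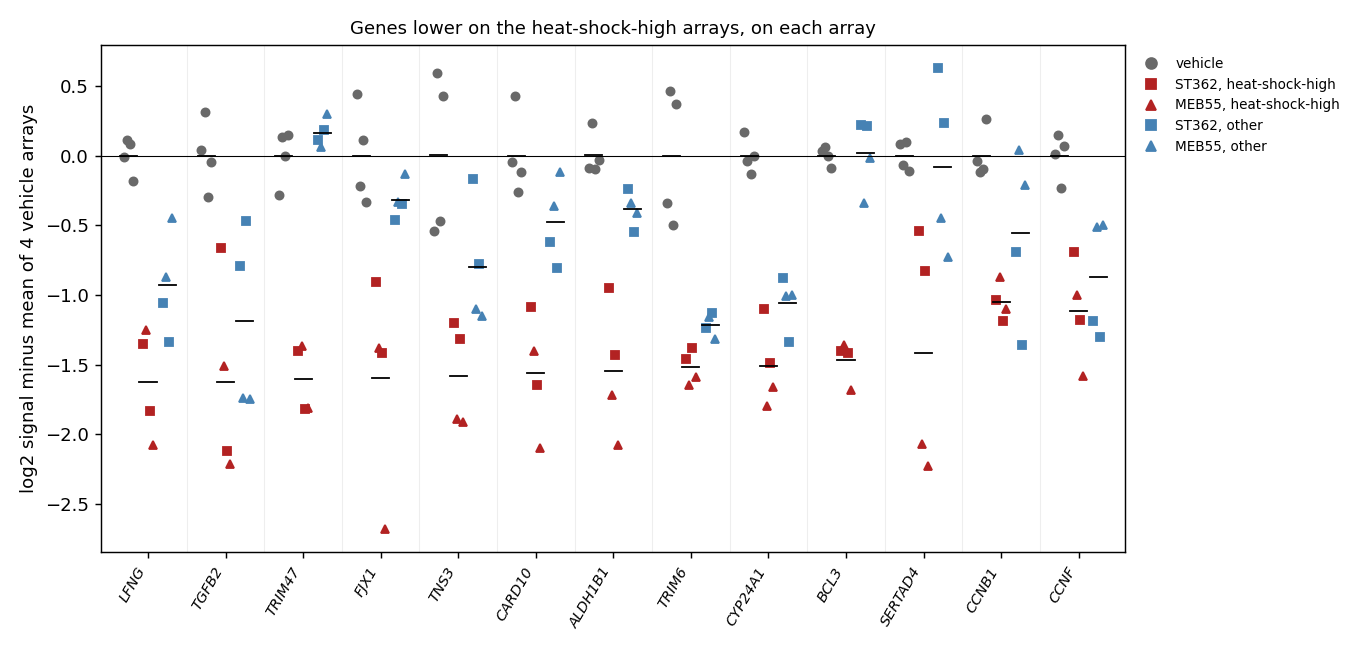
Log2 signal of 13 genes that were lower on the heat-shock-high arrays, on each of 12 arrays, as the difference from the mean of the 4 vehicle arrays (symbols and lines as for the chaperone genes). TRIM47 and BCL3 were near vehicle on the other analogue arrays, TRIM6 and CYP24A1 were below vehicle on all 8 analogue arrays, and SERTAD4 had lower values with MEB55 than with ST362, a difference that did not pass the test.

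Genes of G2 and mitosis were shifted down with few of them counted. Of 50 measured, 2 were lower (CCNF and CCNB1) and none higher, 49 had a difference of 0 or below, and the median was -0.57. The single arrays had medians of -0.46 to -0.70, all below the vehicle arrays, and the other analogue arrays had a median of -0.74. CCNB1, the mitotic cyclin, was at -1.04, -0.87, -1.19 and -1.10, against -0.04, -0.12, -0.10 and 0.26. CCNF was at -0.69, -1.0, -1.18 and -1.58 and KIF20A, a cytokinesis motor, at -0.76, -1.24, -0.88 and -1.11 without reaching 2-fold in the mean. The count of 2 was 7 without ST362 6 h replicate 1, 5 without vehicle 6 h replicate 1, 4 without ST362 24 h replicate 2, and 1 without vehicle 24 h replicate 2 or MEB55 24 h replicate 2. At a limit of 1.5-fold 24 of the 50 genes were counted, and with the authors' series values 1. S phase genes had a median of -0.13 with none of 49 counted. Among 26 apoptosis regulators, 1 was counted, the BH3-only gene BIK at -1.31, -1.27, -1.12 and -1.20. Of 25 p53 targets, 1 was counted, SESN2, which the ATF4 list also holds, while CDKN1A, the CDK inhibitor p21, was at 0.69 and overlapped vehicle.

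**Figure D4:**
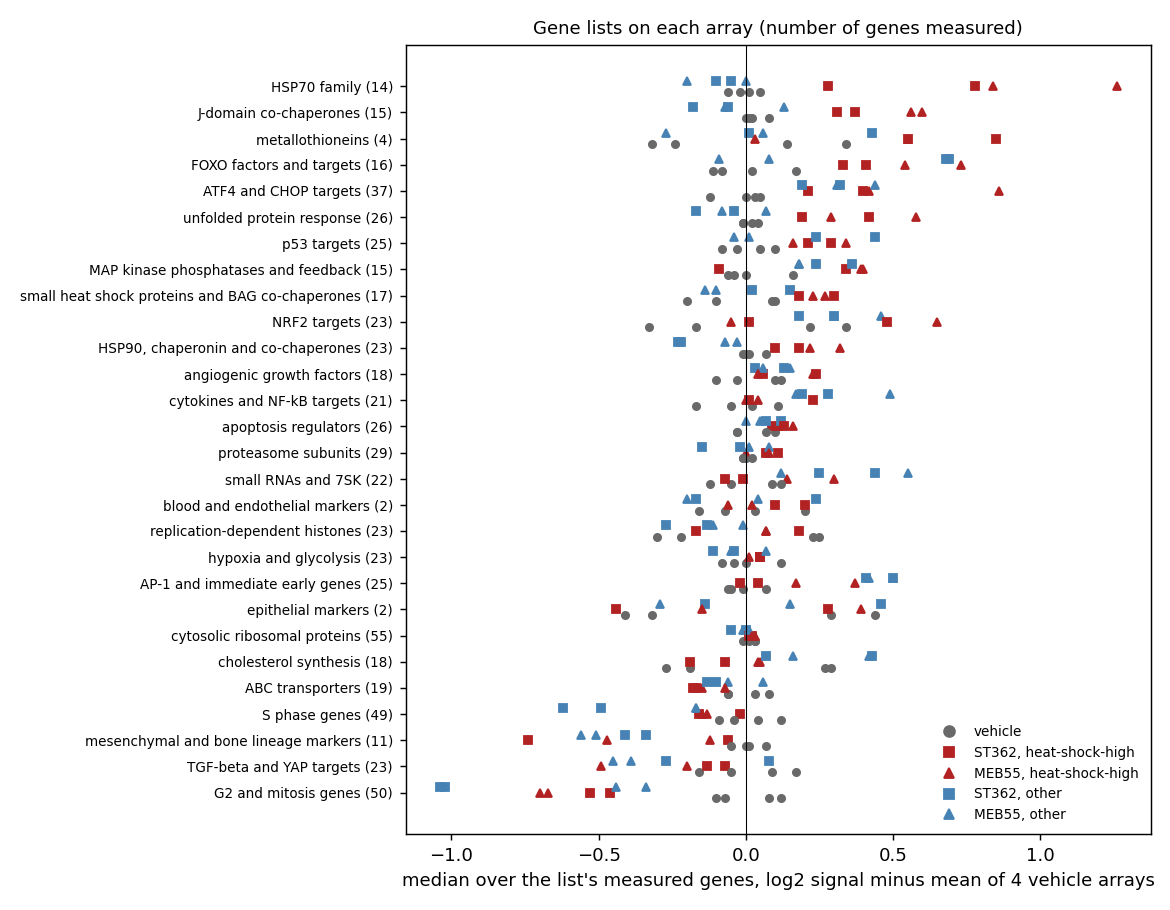
Median over the measured genes of each of 28 lists on each of 12 arrays, as the log2 difference from the mean of the 4 vehicle arrays (number of measured genes in parentheses). The HSP70 list had medians of 0.28, 0.84, 0.78 and 1.26 on the heat-shock-high arrays, and the G2 and mitosis list was below vehicle on all 8 analogue arrays.

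The 4 arrays did not differ from vehicle to the same degree. Counted array by array, the genes over 2-fold above every vehicle array numbered 53 with ST362 6 h, 89 with MEB55 6 h, 68 with ST362 24 h and 153 with MEB55 24 h, and those below every vehicle array 5, 18, 24 and 78. The other analogue arrays had 34 to 84 above and 23 to 62 below, which overlapped the counts of the heat-shock-high arrays. Of the 118 higher genes, 77 were within 2-fold of the vehicle mean on all 4 other analogue arrays and 4 were beyond 2-fold on all of them. Their median was 0.32 on those arrays, and that of the 44 lower genes was -0.41. MEB55 24 h replicate 2 held the most extreme value for 80 of the 118 and 31 of the 44. Without ST362 6 h replicate 1, 149 genes were higher and 76 lower. Without MEB55 24 h replicate 2, 103 were higher and 39 lower, of which 94 and 36 were among the genes counted before.

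**Figure D5:**
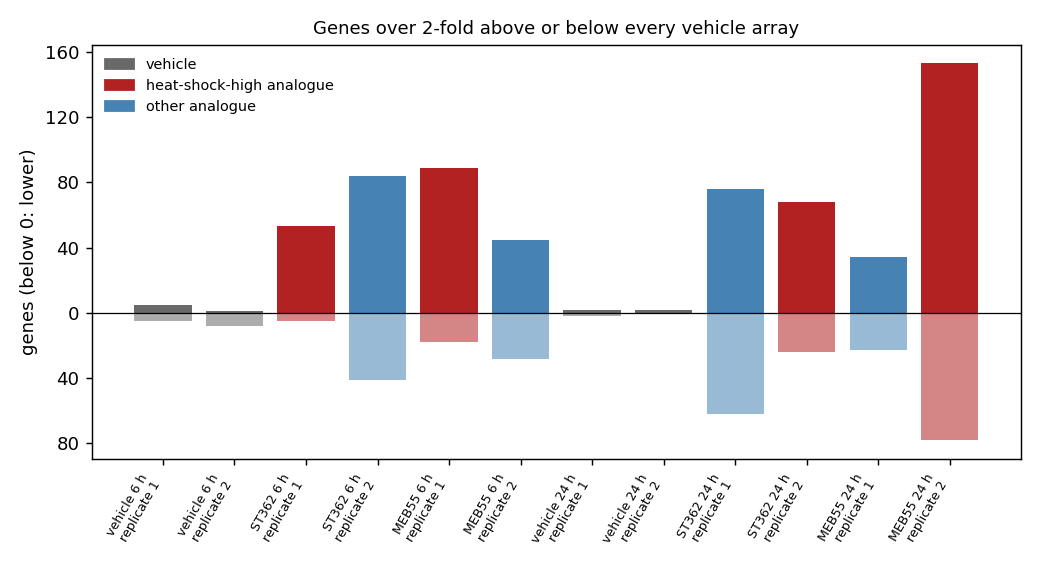
Number of genes over 2-fold above (upward bars) and below (downward, paler bars) every vehicle array, for each of the 12 arrays, where a vehicle array was set against the other 3. MEB55 24 h replicate 2 had 153 above and 78 below, and the vehicle arrays had at most 5 above and 8 below.

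By compound, the 2 ST362 arrays had 99 genes higher (0.800%) and 34 lower (0.275%), and the 2 MEB55 arrays 179 higher (1.45%) and 93 lower (0.752%), against the same 4 vehicle arrays. Both compounds were given at 5 ppm, which equates their mass per volume but leaves their molarity unmatched. By the conversion that the study gives, MEB55 was at the higher molarity, so compound and molar dose cannot be told apart here. Counts from 2 arrays rest on each of them: without ST362 6 h replicate 1 the ST362 count lower was 100, and without MEB55 6 h replicate 1 the MEB55 counts were 291 higher and 195 lower. HSPA6 was at 6.23 with ST362 and 7.22 with MEB55, HSPA1B at 3.12 and 3.55, HMOX1 at 4.00 and 5.75, GDF15 at 2.68 and 3.99, DDIT3 at 2.51 and 3.69, ABCB1 at 1.76 and 2.93, and PGF at 2.44 and 2.61. Of the 118 higher genes, MEB55 lay further from vehicle than ST362 for 93 in the arrays labelled 6 h and for 94 in those labelled 24 h, where the same count over all genes was 6787 and 6937 of 12368. The 118 were chosen by the mean of these same arrays, and MEB55 24 h replicate 2 held the most extreme value for 80 of them. Their share and the share over all genes are therefore not like for like. All these comparisons share the vehicle arrays.

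The difference between the compounds was tested directly, as 1 pair, with limma over the 8 heat-shock-high and vehicle arrays and Benjamini-Hochberg adjustment over 22369 probes. No probe passed (0%), with 1073 at an unadjusted p under 0.05 and a smallest adjusted p of 0.0651. That probe was SERTAD4, a transcriptional coregulator, which was at -0.54 and -0.83 with ST362 and at -2.07 and -2.23 with MEB55, a difference of -1.46 (95% interval -1.84 to -1.09). It passed in 5 of the alternative fits, with adjusted p from 0.0195 to 0.828 over all of them. The other probes with the smallest p did not pass either: MEB55 minus ST362 was 1.47 for ZNF165, 1.40 for TRIB3, 1.00 for DMRT1, -1.10 for TLR4 and -0.96 for SLFN12, with adjusted p of 0.207 to 0.321 by limma. For ABCB1 the difference was 1.17 with an interval of 0.70 to 1.63 (adjusted p = 0.321 by limma), for GDF15 1.31 with 0.75 to 1.87 (adjusted p = 0.342 by limma) and for HMOX1 1.74 with 0.58 to 2.91 (adjusted p = 0.783 by limma). PGF differed by 0.18 with an interval of -0.36 to 0.71 and HSPA1A by 0.18 with -0.20 to 0.57. This fit held no term for the time label, so any difference between a compound's arrays labelled 6 h and 24 h counted as spread. Each heat-shock-high array correlated most with the other compound's array of the same label (0.9914 for 6 h, 0.9894 for 24 h), and that pairing was not used. With 2 arrays of each compound and this spread, differences of such sizes could not be separated from it after adjustment. That does not show that the compounds act alike.

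A contrast set by the treatment labels alone, all 8 analogue arrays against the 4 vehicle arrays, was also tested with limma over 12 arrays. The time labels were left out of the fit, so each treatment pooled its arrays labelled 6 h and 24 h. The contrast called 116 probes higher (0.519%) and 129 lower (0.577%), and by gene 86 higher and 90 lower of 12368. Among them were 25 of the 118 genes and 16 of the 44 in the same direction. The 118 and the 44 were chosen on arrays that are part of this contrast, so that overlap is no separate support for them. GDF15 passed with an adjusted p of 0.0215, as did PPP1R15A (0.0271), CRYAB (0.025), SLC7A11 (0.0157), GABARAPL1 (0.0157), ZNF114 (0.0427), LFNG (0.0225), TGFB2 (0.0215), and TRIM6 and CYP24A1 (both 0.00932). Some genes not counted above passed too, such as CXCL8 (adjusted p = 0.0188 by limma) and KIF20A (0.023). CXCL8 lost its call when replicate 2 of either vehicle group was left out, and KIF20A without any 1 of 3 vehicle arrays. HSPA6 (adjusted p = 0.303 by limma), HSPA1B (0.52), HMOX1 (0.231), DDIT3 (0.32), ABCB1 (0.284) and PGF (0.371) did not pass. Their means on the other 4 analogue arrays ran from -0.37 (HSPA1B) to 0.88 (HMOX1), below those on the heat-shock-high arrays. For HSPA6 this split was set by the choice of arrays. The counts depended on single arrays: they fell to 0 and 0 without vehicle 24 h replicate 2, with 2303 probes at an unadjusted p under 0.05, to 2 and 5 without vehicle 6 h replicate 2, to 28 and 23 without vehicle 24 h replicate 1 and to 32 and 39 without vehicle 6 h replicate 1. They were 75 and 73 without MEB55 6 h replicate 1, 74 and 76 without ST362 24 h replicate 1, and 76 and 89 without ST362 6 h replicate 2. The calls for GDF15, PPP1R15A, CRYAB and LFNG were lost without any 1 of the 4 vehicle arrays, that for ZNF114 without 9 of the 12 arrays, that for TGFB2 without 3 of the vehicle arrays, those for SLC7A11 and GABARAPL1 when replicate 2 of either vehicle group was left out, and those for TRIM6 and CYP24A1 without vehicle 24 h replicate 2.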

How the data were processed

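The arrays were read in GenomeStudio by the authors, who deposited a table of non-normalised bead intensity values with a detection p-value for each probe and array, and a series table of quantile-normalised intensity values of the same arrays; the chip's annotation came with GEO's platform table. The study's array methods name duplicate sample sets, and its figure legend describes the 6 h results as coming from independent experiments. For the 24 h arrays independence is not stated separately. Intensities were background-corrected with the detection p-values, quantile-normalised and put on the log2 scale (limma 3.58.1 neqc, offset 16, R 4.3.3). Probes detected at p under 0.05 on at least 4 of 12 arrays were kept (22369 of 47313 probes); 30109 probes had 1 gene symbol, 8 several and 17196 none. A gene was read from its brightest kept probe. The compounds, and all analogue arrays against vehicle, were compared with limma and Benjamini-Hochberg adjustment at 0.05. Array values give no read depth, and the number of arrays limits the precision. The code was tested on simulated data. Named genes were those the study discusses, the 20 largest differences each way, up to 4 of each list and the compound contrast's 3 smallest p each way; some were left out for length. The arrays, lists and tests were chosen with earlier results of these data known. AHSA1 and BIRC3 were not analysed here.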

Additional observations from a re-analysis of the deposited data

Results flagged for a closer look

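In 9 of the 296 groups of 4 arrays examined (148 named genes, in vehicle and in the heat-shock-high arrays), 1 array stood apart from the other 3 by more than Dixon's 95% critical share of the whole range, where chance alone marks about 5% of groups. Values are log2 differences from the mean of the 4 vehicle arrays. MEB55 6 h replicate 1 was the array apart for 4 genes: ABCC2 was at 0.86 and the other 3 heat-shock-high arrays at 0.37 to 0.43, ADORA2B at -0.99 and the others at -1.69 to -1.59, AHSA2P at 0.72 and the others at 1.14 to 1.20, and ITGAM at -0.26 and the others at -0.03 to 0.00. DNAJB1 was at 2.76 on MEB55 24 h replicate 2 and at 2.07 to 2.16 on the others. FOXO4 was at 1.28 on ST362 24 h replicate 2 and at 0.91 to 0.96 on the others. Among the vehicle arrays, PSMD10 was at 0.12 on vehicle 24 h replicate 2 and at -0.05 to -0.03 on the others, PWWP3B at -0.16 on vehicle 6 h replicate 2 and at 0.05 to 0.07 on the others, and SERPINH1 at -0.33 on vehicle 6 h replicate 1 and at 0.07 to 0.13 on the others.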

How the results depend on the processing

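Counts for the 4 heat-shock-high arrays, higher and lower, were 40 and 9 without background correction, 68 and 16 with an offset of 50, 52 and 10 with the authors' series values, 392 and 308 at 1.5-fold and 40 and 4 at 3-fold. For ST362 alone they were 35 and 6, 56 and 13, 42 and 7, 377 and 304, and 29 and 3 under the same settings, and for MEB55 alone 63 and 21, 107 and 49, 78 and 28, 562 and 524, and 57 and 14. Against the vehicle arrays labelled 6 h only, 54 genes were lower with ST362. Leaving out each array gave 103 to 149 higher and 39 to 76 lower, 97 to 146 and 26 to 100 for ST362, and 169 to 291 and 72 to 195 for MEB55.

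Between the compounds, limma passed 1 gene with the mean of a gene's probes, 3 probes in the fit of all 12 arrays, 2 with an intensity trend, 1 with the robust fit, and 0 whenever 1 array was left out (727 to 1152 at an unadjusted p under 0.05), where a compound left with 1 array was assumed to vary like the other groups. With the replicate number as a block it passed 2 probes. Same-numbered arrays were not known to be paired: replicate 1 minus replicate 2 correlated across probes at 0.44 between ST362 and MEB55, at -0.18 and -0.04 between these and vehicle over both times, and at 0.18 and 0.35 over the same 2 labels. For any analogue against vehicle, the block left 107 probes higher and 116 lower. There the count higher was 61 without background correction, 74 with an offset of 50 and 69 with the authors' series values, the counts were 22 and 33 without a filter on detection, and leaving out each array gave 0 to 129 higher and 0 to 150 lower.

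Of 3841 recomputed differences of the 148 named genes, 148 moved by more than 1 SD, 30 counted genes had a value that moved over 1.5-fold, and none that had been counted changed sign. The second HSPA6 probe, tried after seeing the data, put 3 arrays past the margin on the normalised scale and 0 on the raw scale. The cause of these changes was not tested. Genes near the detection floor in vehicle, HSPA6, HSPA7, PGF and CHAC1 among them, have differences limited by signal over background.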
